A study of Mus musculus with 12 samples.

Results

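Dual-specificity MAP kinase phosphatases were examined in the ventricles of humanized phospholamban mice. The members were chosen by symbol, as Dusp1, Dusp3, Dusp4, Dusp5, Dusp6, Dusp8, Dusp10 and Dusp16, and 8 of the 33641 listed genes met this rule. RNA sequencing values, deposited as TPM (a transcript abundance scaled to the gene's length and to the same total in every sample), covered 12 heart samples, 3 each from the left ventricle (LV) and the right ventricle (RV) of WT-PLN mice and of R14del-PLN mice. All mice were labelled C57BL/6J and 12 to 14 weeks old. In both genotypes the mouse phospholamban coding sequence had been replaced by the human one, so that the WT-PLN controls also carried a knock-in. The study's methods describe a hybrid line made by gene targeting and crossing to Sox2-Cre mice, with male R14del/WT heterozygotes compared to WT controls. The titles of the mutant samples read KO, and the genotype label R14del-PLN was used here. R14del is a deletion of arginine in phospholamban, the inhibitor of the sarcoplasmic reticulum calcium pump, and it causes cardiomyopathy in carriers.

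MAP kinases are switched on when both a threonine and a tyrosine in their activation loop are phosphorylated, and dual-specificity phosphatases switch them off by removing both phosphates. Dusp1, Dusp4 and Dusp5 are nuclear phosphatases whose transcription is switched on by the MAP kinase signals they end, Dusp6 is a cytoplasmic phosphatase selective for ERK, and Dusp8, Dusp10 and Dusp16 prefer the stress kinases JNK and p38. Dusp3 is a small atypical member without the MAP kinase binding domain. In the heart, these enzymes limit ERK, p38 and JNK signalling during growth and stress.

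The promoters of the members that differed most by genotype (Dusp1) and by ventricle (Dusp8) are shown, since they were the members with the full cyclic AMP response element, TGACGTCA, by which CREB and ATF factors bind DNA. They are the 250 bases before the start site, 5′ to 3′ on the gene's strand, from RefSeq (GRCm38.p6), with capitals marking TGACG on either strand (a part of the full element, which holds it on both strands) and CACGTG, the E-box of the clock factors. Dusp1 lies at chr17:26508473-26508722 and Dusp8 at chr7:142095285-142095534, both on the minus strand. The Dusp1 window adjoins its RefSeq gene, which ends at 26508472. The Dusp8 window lies inside its RefSeq gene, chr7:142079487-142095907, so its start site is an internal one.
Dusp1: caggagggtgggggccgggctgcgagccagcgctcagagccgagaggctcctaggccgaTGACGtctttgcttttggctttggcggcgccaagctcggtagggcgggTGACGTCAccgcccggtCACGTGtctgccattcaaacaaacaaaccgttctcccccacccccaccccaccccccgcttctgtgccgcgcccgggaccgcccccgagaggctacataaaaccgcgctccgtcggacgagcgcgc
Dusp8: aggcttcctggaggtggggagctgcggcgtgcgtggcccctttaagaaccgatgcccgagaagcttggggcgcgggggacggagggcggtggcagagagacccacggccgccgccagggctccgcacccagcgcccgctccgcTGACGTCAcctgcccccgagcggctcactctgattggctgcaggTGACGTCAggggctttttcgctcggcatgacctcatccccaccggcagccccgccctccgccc
RefSeq promoters, searched on both strands from 250 bases before to 50 after the start site, were matched for 7 members, and Dusp4 had no entry. The full element began 143 bases before the start of Dusp1 and 107 and 63 bases before the internal start site used for Dusp8. It was present in 1.79% of the 32817 promoters searched. A link between this element and the levels of Dusp1 or Dusp8 was not tested. Dusp1 also held a lone TGACG 191 bases before the start and CACGTG 126 bases before it, letters found in 20.79% and 7.15% of all promoters. Dusp5 held 2 CArG boxes, the element of serum response factor, 82 and 72 bases before its start, a motif present in 1.63% of promoters. The AP-1 element TGANTCA, the letters TATAAA and the palindromic glucocorticoid response element were not in these windows of any member. They were found in 7.81%, 13.62% and 0.01% of all promoters. The last is so rare that its absence says nothing about these members.

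The samples held high levels of cardiomyocyte genes, with the 7 genes listed for ventricular cardiomyocytes summing to between 32193 and 49096 TPM. That sum alone does not tell ventricle from atrium. Mitochondrially encoded genes took 37.3% to 54.5% of all TPM, lowest in LV R14del-PLN replicate 3 and highest in RV R14del-PLN replicate 3. The latter carries a run number that differs from that of the other samples. Y-linked genes were at 0.0159 to 0.191 TPM in both WT-PLN samples numbered 1, and at 3.03 to 30.6 TPM in the other samples. Those 2 samples thus do not match the males named in the methods, and the values of Dusp1 are also given without them. Atrial cardiomyocyte markers summed to 1296 TPM in LV WT-PLN replicate 3, 871 in RV WT-PLN replicate 2 and 521 in RV R14del-PLN replicate 2, against 45.6 to 319 TPM elsewhere. The labels do not state that samples came from separate mice, so the p-values measure the spread between these samples, which may in part be technical. In whole tissue, fewer cells of a type and less RNA per cell cannot be told apart.

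All 8 phosphatases were listed above 0 in each sample, and their mean TPM levels spanned from 0.397 for Dusp4 to 30.5 for Dusp3 over the 12 samples. In WT-PLN hearts Dusp1 had the highest mean level, at 40.3 ± 21.6 TPM (SD, n = 3) in LV and 34.3 ± 15.7 in RV, but its range overlapped that of Dusp3, which followed at 36.1 ± 6.44 and 26.3 ± 5.74. In R14del-PLN hearts Dusp3 came first, at 33.4 ± 7.07 TPM in LV and 26.3 ± 5.87 in RV, and its range lay above that of Dusp1 in both ventricles. Dusp8, Dusp16 and Dusp6 followed in that order in each of the 4 groups. The ranges of Dusp16 and Dusp6 overlapped in 3 of the groups, RV R14del-PLN excepted, where those of Dusp8 and Dusp16 overlapped. Dusp10, Dusp5 and Dusp4 were the lowest members in all groups, and the ranges of Dusp10 and Dusp5 overlapped in both WT-PLN groups. The plot of TPM by sample shows each of these levels.

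**Figure D1:**
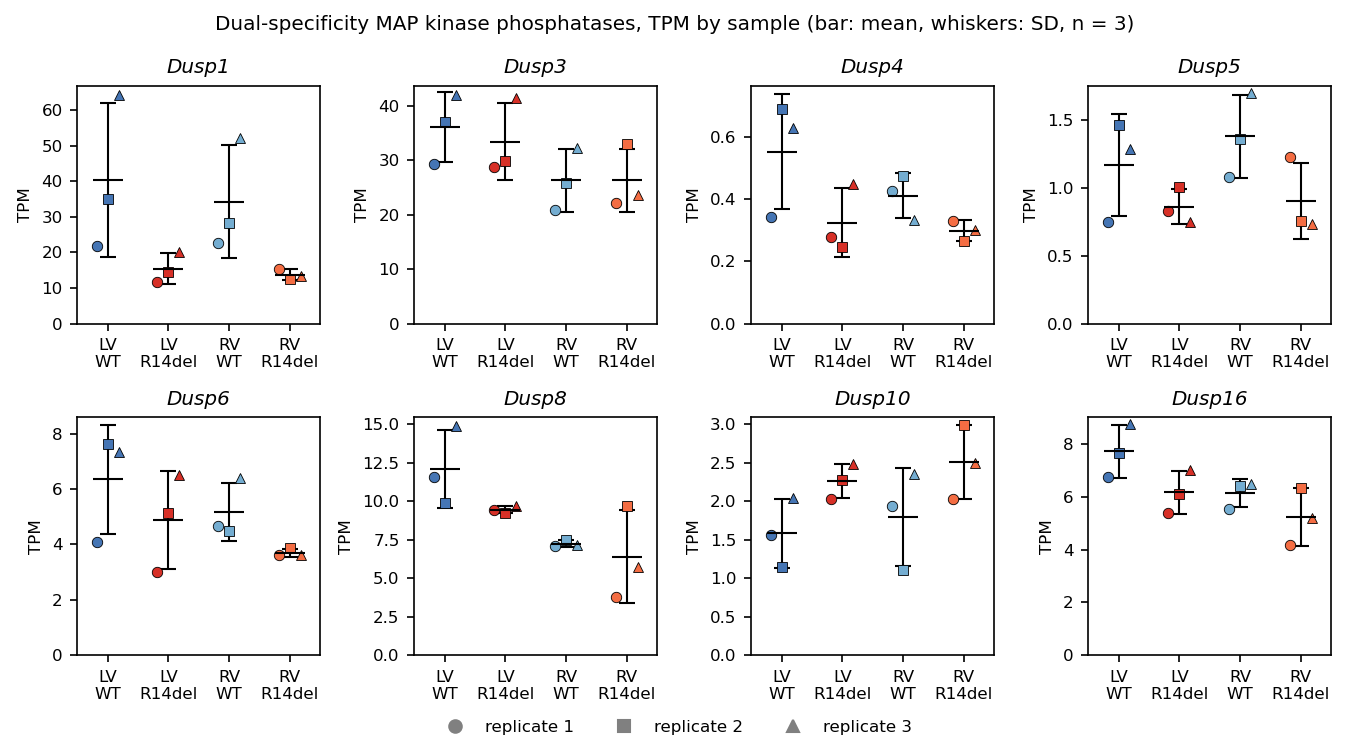
TPM of each of the 8 phosphatases (vertical axis, starting at 0) in the 3 samples of each group, with symbols for the replicate number, a bar for the mean and whiskers for the SD. Dusp1 sits between 21.9 and 64.1 TPM in the WT-PLN samples and between 11.7 and 20.1 in the R14del-PLN samples, while Dusp3 overlaps between genotypes in both ventricles.

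The comparison between genotypes asked whether the mutation goes with other transcript levels at a young age. Dusp1, which removes phosphate from p38, JNK and ERK in the nucleus and is an early response and glucocorticoid-induced gene, differed most. In LV it was at 21.9, 35.0 and 64.1 TPM in WT-PLN replicates 1 to 3 and at 11.7, 14.5 and 20.1 TPM in R14del-PLN replicates 1 to 3. In RV it was at 22.6, 28.1 and 52.2 TPM in WT-PLN and at 15.5, 12.5 and 13.3 TPM in R14del-PLN samples. Every R14del-PLN sample was below every WT-PLN sample of its ventricle, with the narrowest gap in LV between WT-PLN replicate 1 and R14del-PLN replicate 3. The R14del-PLN means were 0.383 times the WT-PLN means in LV and 0.401 times in RV.

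These differences were tested with limma on log2(TPM + 1) across the 12526 genes that averaged 0.5 TPM or more, and a gene counted as called when its Benjamini-Hochberg adjusted p was 0.05 or less and its fold change 1.5 or more. The log2 fold change of Dusp1 was -1.23 in LV (SE 0.35, 95% interval -1.98 to -0.48) and -1.17 in RV (SE 0.35, 95% interval -1.92 to -0.43). The unadjusted limma p was 0.00353 in LV and 0.00481 in RV, and the adjusted p was 0.208 and 0.325, so Dusp1 was not called in either ventricle. The study itself reports Dusp1 as downregulated in both ventricles at the same thresholds. That test was made with other software, which called more genes than limma did here. Without LV WT-PLN replicate 1, the lowest sample of its group, Dusp1 fell by 1.59 on the log2(TPM + 1) scale in LV and was called (limma adjusted p = 0.0403). Without both WT-PLN samples numbered 1, Dusp1 was again called in LV (-1.59, limma adjusted p = 0.022), and its RV value of -1.42 was not called (limma adjusted p = 0.066). Without LV WT-PLN replicate 3, the highest, the value was -0.84 (limma adjusted p = 0.645). Without RV WT-PLN replicate 3 the RV value was -0.83, and without RV R14del-PLN replicate 3, the sample with another run number, it was -1.15. For Dusp1, the interaction between genotype and ventricle came to 0.06 (SE 0.49, 95% interval -1.002 to 1.11, limma adjusted p = 0.9999). An exact permutation test of 3 samples against 3 gave p = 0.1 in each ventricle, two-sided, the smallest that this design allows.

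In the GENCODE annotation Dusp1 overlaps Ergic1, which encodes a protein of endoplasmic reticulum to Golgi traffic, in exons on the opposite strand. Dusp1 spans chr17:26505590-26562128 there, while its RefSeq entry is 2882 bases long, at 26505591-26508472. Overlap with the shorter RefSeq entry was not examined. The sources used here do not state whether the deposited values were made by strand, so reads of the pair may be shared. Ergic1 was at 10.6 to 15.1 TPM in LV and at 10.8 to 12.3 TPM in RV, a narrower range than that of Dusp1. None of the 8 genes had a near-identical copy among annotated transcripts, at 95% identity over 80% of the shorter transcript.

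Dusp4 and Dusp5, the other nuclear members, were the members with the lowest levels. Dusp4 was at 0.343, 0.690 and 0.628 TPM in LV WT-PLN and at 0.278, 0.245 and 0.451 TPM in LV R14del-PLN samples, and at 0.427, 0.474 and 0.332 TPM in RV WT-PLN and 0.331, 0.266 and 0.302 TPM in RV R14del-PLN samples. The groups overlapped in LV and in RV were apart by the margin between 0.331 and 0.332 TPM. Its mean was under the filter, and in a fit of all 22948 genes above 0 its log2 fold change was -0.23 in LV (SE 0.09, limma adjusted p = 0.538) and -0.12 in RV (SE 0.09, limma adjusted p = 0.978).

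Dusp5, a phosphatase of ERK alone, was at 0.751, 1.47 and 1.29 TPM in LV WT-PLN and at 0.834, 1.01 and 0.749 TPM in LV R14del-PLN samples. In RV it was at 1.08, 1.36 and 1.70 TPM in WT-PLN and at 1.23, 0.754 and 0.732 TPM in R14del-PLN samples. The groups overlapped in both ventricles, since WT-PLN replicate 1 was lowest in its group and, in RV, R14del-PLN replicate 1 was highest in its group. Its log2 fold change was -0.21 in LV (SE 0.16, limma adjusted p = 0.754) and -0.32 in RV (SE 0.16, limma adjusted p = 0.83).

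Dusp6, which switches off ERK in the cytoplasm and is itself an ERK target gene, was at 4.07, 7.62 and 7.36 TPM in LV WT-PLN and at 3.00, 5.14 and 6.53 TPM in LV R14del-PLN samples. In RV it was at 4.66, 4.48 and 6.39 TPM in WT-PLN and at 3.63, 3.86 and 3.60 TPM in R14del-PLN samples. The RV groups did not overlap, while those of LV did. On the log2 scale Dusp6 differed by -0.33 in LV (SE 0.24, limma adjusted p = 0.737) and -0.38 in RV (SE 0.24, limma adjusted p = 0.985). Its LV value was -0.07 without LV R14del-PLN replicate 1 and -0.57 without LV WT-PLN replicate 1.

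Among the phosphatases of JNK and p38, Dusp10 was the member with higher means in R14del-PLN hearts. Dusp10, which is induced by stress and acts on both kinases, was at 1.56, 1.15 and 2.04 TPM in LV WT-PLN and at 2.03, 2.27 and 2.48 TPM in LV R14del-PLN samples, and in RV at 1.94, 1.10 and 2.35 TPM against 2.03, 2.99 and 2.50 TPM. The groups overlapped in both ventricles through WT-PLN replicate 3. Its log2 fold change was 0.35 in LV (95% interval -0.05 to 0.74, limma adjusted p = 0.584) and 0.34 in RV (95% interval -0.05 to 0.74, limma adjusted p = 0.896).

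Dusp8, which is abundant in heart and brain, was at 11.6, 9.87 and 14.9 TPM in LV WT-PLN and at 9.39, 9.25 and 9.69 TPM in LV R14del-PLN samples. In RV it was at 7.06, 7.49 and 7.12 TPM in WT-PLN and at 3.79, 9.69 and 5.69 TPM in R14del-PLN samples. The LV groups did not overlap, and the RV R14del-PLN samples lay on both sides of the WT-PLN samples. Its log2 fold change was -0.31 in LV (SE 0.23, limma adjusted p = 0.739) and -0.23 in RV (SE 0.23, limma adjusted p of 1).

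Dusp16, which acts on JNK and can shuttle between nucleus and cytoplasm, was at 6.76, 7.65 and 8.78 TPM in LV WT-PLN and at 5.39, 6.11 and 7.002 TPM in LV R14del-PLN samples, and in RV at 5.54, 6.41 and 6.48 TPM against 4.16, 6.33 and 5.21 TPM. The groups overlapped in LV and in RV, and the fitted values were -0.28 (SE 0.15, limma adjusted p = 0.594) and -0.21 (SE 0.15, limma adjusted p of 1). Dusp3 was at 29.3, 37.0 and 42.1 TPM in LV WT-PLN and at 28.8, 29.9 and 41.5 TPM in LV R14del-PLN samples, and in RV at 20.8, 25.9 and 32.2 TPM against 22.2, 33.0 and 23.7 TPM. Its groups overlapped throughout. The log2 fold change, -0.11 in LV, was the nearest to 0 among the members (95% interval -0.56 to 0.33), and in RV both genotypes had a mean of 26.3 TPM (95% interval of the log2 fold change -0.44 to 0.44).

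Over the genotype comparisons, 0 of the 7 members past the filter were called by limma in LV, where 0.519% of the tested genes were called, and 0 in RV, where 0.271% were. Dusp4 was not called in the fit of all genes above 0. At an unadjusted limma p of at most 0.05, the count was 1 of 7 in LV (Dusp1, against 9.6% of tested genes) and 1 of 7 in RV (Dusp1, against 6.22%). Dusp4 had an unadjusted p of 0.0294 in LV, in a fit where 7.99% of the 22948 genes were at or under 0.05. The groups did not overlap, with R14del-PLN lower, for 2 members in LV (Dusp1 and Dusp8, against 8.47% of tested genes) and for 2 in RV (Dusp1 and Dusp6, against 5.79%). Dusp4 was lower without overlap in RV by the narrow margin given above, as were 4.61% of all genes above 0. Dusp1 was lower without overlap in both ventricles, as were 2.38% of the tested genes. LV and RV samples with one number may come from the same mouse, so the ventricles may not be separate observations. The log2 fold change was negative for 6 of the 7 tested members in each ventricle, the exception being Dusp10, and for 71.7% (LV) and 50.9% (RV) of the genes tested. Dusp3 had the opposite sign in both ventricles under other scalings, and so had Dusp8 in RV without R14del-PLN replicate 1. The median over the 7 members past the filter was -0.28 in LV and -0.23 in RV, beside -0.09 and -0.00 over all genes tested. Quantile normalization or upper quartile scaling brought the median of all genes to between 0.00984 and 0.0167 and left Dusp1 at -1.11 in LV and -1.15 in RV. The plot of log2 fold changes shows that the intervals of Dusp1 were the widest and lay wholly below 0 in both ventricles.

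**Figure D2:**
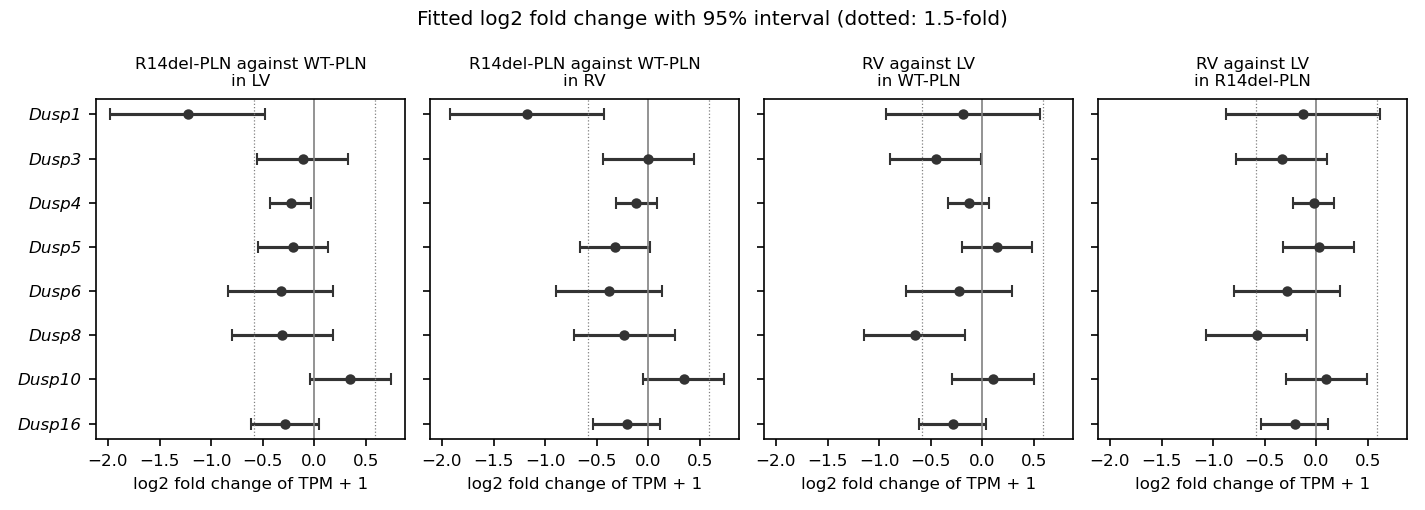
Fitted log2 fold change of TPM + 1 (horizontal axis) with its 95% interval for each phosphatase in 4 comparisons, with dotted lines at 1.5-fold. Dusp1 sits at -1.23 in LV and -1.17 in RV between genotypes, and Dusp8 at -0.65 and -0.58 between ventricles. Dusp4 comes from the fit of all genes above 0.

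The make-up of the family is independent of the scaling between samples, because each share is taken within one sample. The 8 genes summed to 76.3 to 141 TPM in LV WT-PLN, 61.4 to 88.5 in LV R14del-PLN, 64.1 to 109 in RV WT-PLN and 52.8 to 69.4 in RV R14del-PLN samples. Dusp1 made up 28.7%, 34.8% and 45.4% of this sum in LV WT-PLN and 19.1%, 21.2% and 22.7% in LV R14del-PLN samples, and 35.2%, 37.3% and 48.0% in RV WT-PLN against 29.2%, 18.02% and 24.2% in RV R14del-PLN samples. The share of Dusp1 was lower in every R14del-PLN sample than in every WT-PLN sample of the same ventricle, and that of Dusp3 was higher in every one. Among the 7 members other than Dusp1, the shares of Dusp3 overlapped between genotypes in both ventricles, at 55.0% ± 1.39 in LV WT-PLN, 58.0% ± 2.63 in LV R14del-PLN, 54.0% ± 3.503 in RV WT-PLN and 58.1% ± 1.33 in RV R14del-PLN (SD, n = 3). Dusp10 made up 1.75% to 2.87% of those 7 genes in LV WT-PLN and 3.63% to 4.22% in LV R14del-PLN samples, and 2.33% to 4.68% in RV WT-PLN and 5.26% to 5.99% in RV R14del-PLN samples. Its ranges were therefore apart in both ventricles as a share, while they overlapped as TPM. These shares are descriptions, and no test was made of them.

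**Figure D3:**
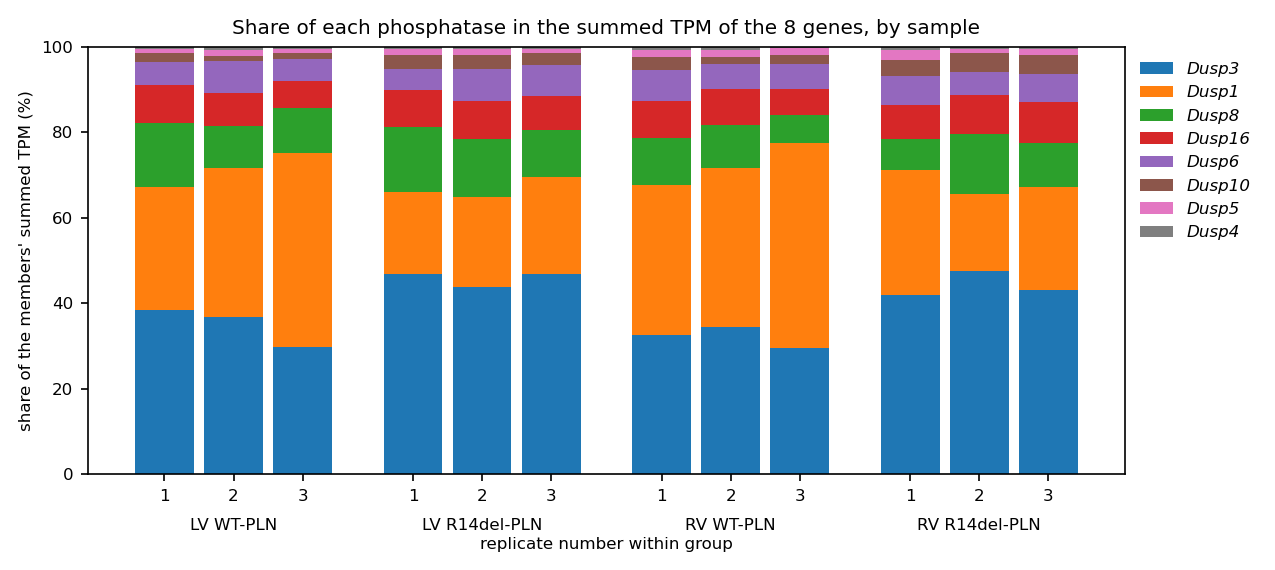
Share of each phosphatase (percent of the summed TPM of the 8 genes, vertical axis) in each of the 12 samples, grouped by ventricle and genotype. Dusp1 takes 28.7% to 48.0% of the bar in WT-PLN samples and 18.02% to 29.2% in R14del-PLN samples.

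The comparison of RV with LV asked how the chambers differ within a genotype. Dusp8 had the fitted values farthest from 0, and its TPM in each sample is given above. All 3 RV WT-PLN samples were below all 3 LV WT-PLN samples, with a log2 fold change of -0.65 (SE 0.23, 95% interval -1.15 to -0.16, limma unadjusted p = 0.0127, adjusted p = 0.285). In R14del-PLN hearts the groups overlapped through RV replicate 2, with a log2 fold change of -0.58 (SE 0.23, 95% interval -1.07 to -0.09, limma unadjusted p = 0.0245, adjusted p = 0.737). That value was -0.30 without RV R14del-PLN replicate 1 and -0.88 without RV R14del-PLN replicate 2. Dusp16 was also lower without overlap in RV WT-PLN samples (log2 fold change -0.29, limma adjusted p = 0.381), and Dusp3 was lower with overlap (log2 fold change -0.45, limma unadjusted p = 0.0467, adjusted p = 0.34). In R14del-PLN hearts Dusp16 was at -0.21 and Dusp3 at -0.34. Dusp1, Dusp4, Dusp5, Dusp6 and Dusp10 had log2 fold changes between -0.23 and 0.14 in WT-PLN and between -0.28 and 0.10 in R14del-PLN hearts, with overlap in each case.

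In WT-PLN hearts 0 of 7 tested members were called by limma, as were 0.0% of the tested genes, and 2 (Dusp3 and Dusp8) had an unadjusted p of at most 0.05, against 14.5% of tested genes. The ranges of RV lay below those of LV for 2 members (Dusp8 and Dusp16), while 25.2% of all tested genes did the same, and the median log2 fold change of all genes was -0.17. Quantile normalization brought that median to 0.00507 and the value of Dusp8 to -0.47. With a block for the replicate number within genotype, 12 genes were called in this comparison and still 0 members. In R14del-PLN hearts 0 members were called by limma against 0.0% of tested genes, 1 (Dusp8) had an unadjusted p of at most 0.05 against 6.57%, and the groups overlapped for all 7 tested members and Dusp4, against 9.98% of tested genes that did not overlap. The interaction of genotype and ventricle called 0 members by limma against 0.0% of tested genes, with 0 members at an unadjusted p of at most 0.05 against 1.01%. The mitochondrial share of TPM was 48.7% to 52.7% in RV WT-PLN against 44.0% to 47.3% in LV WT-PLN samples. Its part in the lower RV values was not tested beyond rescaling without these genes, which left Dusp8 at -0.56.

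The rest of the pathway gives the setting of these phosphatases, from lists chosen with earlier results of these data known. Of the MAP kinase phosphatases outside the set, Dusp7, a cytoplasmic ERK phosphatase, was at 8.003 to 16.4 TPM over the samples and was not called in any comparison, and Dusp2 and Dusp9 were under the filter. In each genotype comparison limma called 0 of 9 tested MAP kinases, 0 of 7 MAP kinase kinases, 0 of 9 other atypical dual-specificity phosphatases, 0 of 5 other feedback inhibitors of ERK (such as the Sprouty genes), 0 of 7 ERK output genes and 0 of 6 serine, threonine or tyrosine phosphatases that act on MAP kinases. The counts at an unadjusted p of at most 0.05 in LV were 0, 0, 1, 1, 1 and 2 in that order, and in RV 0 for each but the last, with 1. The medians of the MAP kinases were -0.04 in LV and 0.06 in RV, and those of the MAP kinase kinases -0.09 and -0.03, beside -0.09 and -0.00 for all genes tested.

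Among the MAP kinase kinase kinases, 1 of 13 tested genes was called in each ventricle. Map3k6, a stress-activated kinase upstream of JNK and p38, was at 5.29, 6.75 and 6.70 TPM in LV WT-PLN and at 1.52, 1.57 and 2.16 TPM in LV R14del-PLN samples, and in RV at 4.62, 4.25 and 4.44 TPM against 1.51, 0.754 and 1.66 TPM. The groups were far apart in both ventricles. Map3k6 fell by 1.40 on the log2(TPM + 1) scale in LV (SE 0.16, limma adjusted p = 0.00132) and by 1.26 in RV (SE 0.16, limma adjusted p = 0.00347), and it was called in both ventricles under all 25 alternatives in which it passed the filter.

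**Figure D4:**
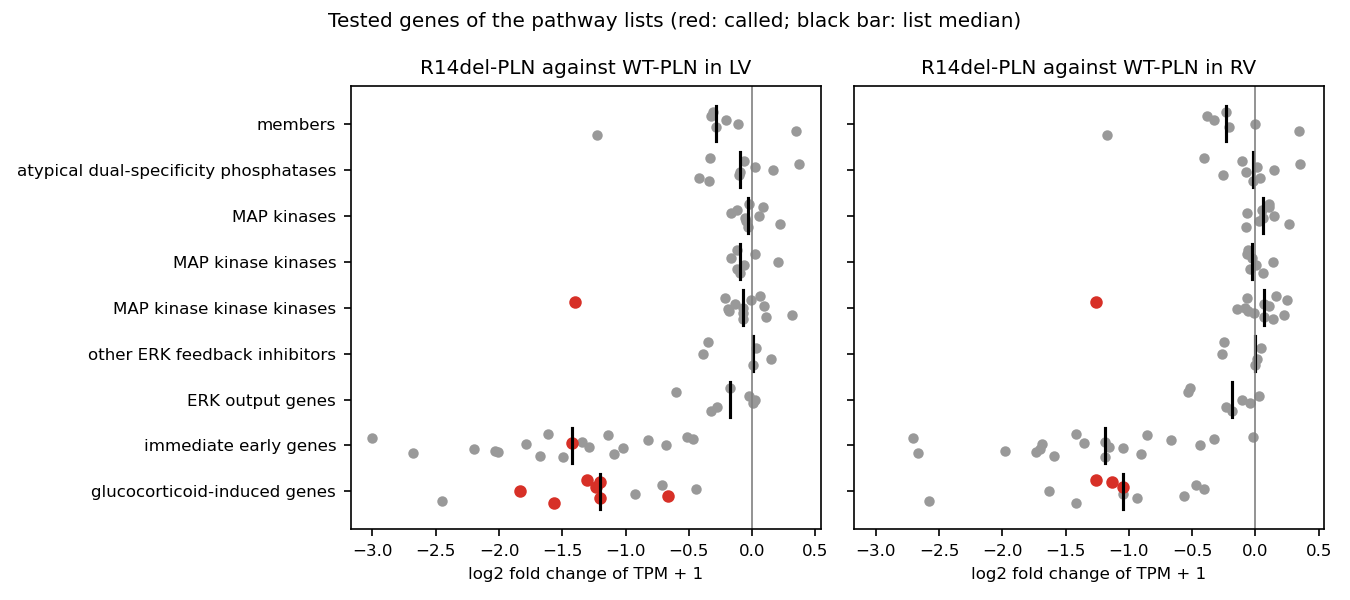
Log2 fold change of TPM + 1 between genotypes (horizontal axis) for each tested gene of 9 lists, in LV and RV, with called genes in red and list medians as black bars. The kinase lists centre near 0 with Map3k6 apart, and the early response and glucocorticoid lists have medians of -1.42 and -1.20 in LV.

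Dusp1 belongs by its known regulation to the immediate early genes, which are transcribed within minutes of a signal, and to the glucocorticoid-induced genes, so its values were set beside both lists. Of the 19 tested immediate early genes, all had negative log2 fold changes in LV and in RV, with medians of -1.42 and -1.19, 14 and 11 of them had an unadjusted limma p of at most 0.05, and 1 (Klf2, a flow-responsive factor of endothelium, in LV, -1.42, adjusted p = 0.0335) was called. Of the 11 tested glucocorticoid-induced genes, all had negative values in both ventricles, with medians of -1.20 and -1.05. Among them, 7 were called in LV and 3 in RV (limma, adjusted p at most 0.05). Tsc22d3, the glucocorticoid-induced leucine zipper, fell by 1.20 in LV (adjusted p = 0.0023) and by 1.14 in RV (adjusted p = 0.00422). Zbtb16 fell by 1.30 and 1.26 (limma adjusted p = 0.00553 and 0.00897) and the clock gene Per1 by 1.23 and 1.05 (limma adjusted p = 0.0044 and 0.0168). Fkbp5, Klf9, Cdkn1a and Mt2 were called in LV only, falling by 0.67 for Klf9 to 1.84 for Mt2. Their RV values were near those of LV, at -0.94, -0.56, -1.42 and -1.63 in that order, and that of Klf2 was -1.36. These missed the threshold in RV (limma adjusted p from 0.0507 to 0.0944), and no interaction with ventricle was called. The LV calls of Tsc22d3, Zbtb16 and Per1 were made under all 26 alternatives, those of the other 4 genes and of Klf2 under 18 to 21 of them. Each of these 5 calls was lost without any 1 of LV R14del-PLN replicates 1 and 2 and LV WT-PLN replicates 2 and 3 (limma adjusted p from 0.0683 to 0.16), and that of Klf2 also without LV R14del-PLN replicate 3 (0.0893) or RV R14del-PLN replicate 3 (0.0581). In RV the calls were made under 25 (Tsc22d3), 21 (Zbtb16) and 21 (Per1) of 26, and all 3 were lost without the 3 samples highest in atrial markers (limma adjusted p from 0.116 to 0.212), although the log2 fold changes differed little from those of all samples, at -1.03 for Tsc22d3, -1.25 for Zbtb16 and -0.98 for Per1. The RV calls of Zbtb16 and Per1 were also lost without RV R14del-PLN replicate 3, RV WT-PLN replicate 2 or RV WT-PLN replicate 3 (limma adjusted p from 0.0555 to 0.118). The lists had been assembled with results of these samples known and are not independent evidence of a direction.

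The level of Dusp1 in the WT-PLN samples followed neither Egr1 of the early list nor Tsc22d3 of the glucocorticoid list exactly. Egr1, an early response transcription factor, was at 1.54, 26.7 and 102.7 TPM in LV WT-PLN and at 1.48, 1.78 and 3.05 TPM in LV R14del-PLN samples, and in RV at 1.03, 20.9 and 84.4 TPM against 1.08, 1.29 and 2.11 TPM. Both WT-PLN samples numbered 1 were thus at the level of the R14del-PLN samples for Egr1. Tsc22d3 was at 74.3, 104.6 and 89.5 TPM in LV WT-PLN and at 31.5, 38.3 and 45.4 TPM in LV R14del-PLN samples, and in RV at 81.9, 90.6 and 78.6 TPM against 39.1, 34.8 and 38.6 TPM, with no sample between the groups. Dusp1 was lowest of the WT-PLN samples in those numbered 1, as Egr1 was, but stayed above the R14del-PLN samples there, as Tsc22d3 did. The early genes Nr4a1 and Klf2 did both in each ventricle, so Egr1 does not stand for the whole early list. Nr4a1 was at 3.92 (LV) and 1.86 TPM (RV) in WT-PLN replicate 1, against at most 2.61 and 1.23 in R14del-PLN samples. R14del-PLN ranges lay below WT-PLN ranges for 12 of the 19 early genes in LV and 8 in RV. The same held for 9 of the 11 glucocorticoid-induced genes in each ventricle. Tsc22d3 was also lowest in replicate 1 in LV WT-PLN, but not in RV. The summed TPM of the immediate early list was 119.9, 278 and 673 in LV WT-PLN and 75.8, 83.2 and 109 in LV R14del-PLN samples, and 87.9, 205 and 486 in RV WT-PLN against 61.0, 80.2 and 72.3 in RV R14del-PLN samples. Red cell markers were also lower in R14del-PLN means, with 5 genes summing to 2087 to 2316 TPM in LV WT-PLN and 1093 to 2142 in LV R14del-PLN, and to 1461 to 1736 in RV WT-PLN and 956 to 1368 in RV R14del-PLN samples. Lymphocyte and neutrophil markers (6 genes) summed to 1.09, 3.39 and 13.1 TPM in LV WT-PLN replicates 1 to 3 and to 0.776 to 1.503 in LV R14del-PLN samples, and to 0.481, 1.68 and 4.47 in RV WT-PLN and 0.618 to 1.14 in RV R14del-PLN samples. Among the WT-PLN samples of each ventricle they had the same order as Dusp1 and Egr1. Fibroblast markers (7 genes) had that order too, at 306, 385 and 536 TPM in LV WT-PLN and 319, 352 and 420 in RV WT-PLN, against 248 to 388 in LV and 290 to 399 in RV R14del-PLN samples. So did smooth muscle and pericyte markers (7 genes), at 219.5, 271 and 465 TPM in LV WT-PLN and 194, 207 and 269 in RV WT-PLN, against 207 to 323 in LV and 207 to 262 in RV R14del-PLN samples. Ventricular cardiomyocyte markers (7 genes) had the same order, at 37705, 39538.9 and 41672.5 TPM in LV WT-PLN and 34177.5, 35361.6 and 37877.9 in RV WT-PLN. Endothelial markers (8 genes) and the MAP kinases (10 genes) also had it in both ventricles. Macrophage and atrial markers had it in LV only, and red cell and adipocyte markers in neither. The order was thus not particular to blood, fibroblast or smooth muscle markers. The part of these cell types in the values of Dusp1 was not tested.

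**Figure D5:**
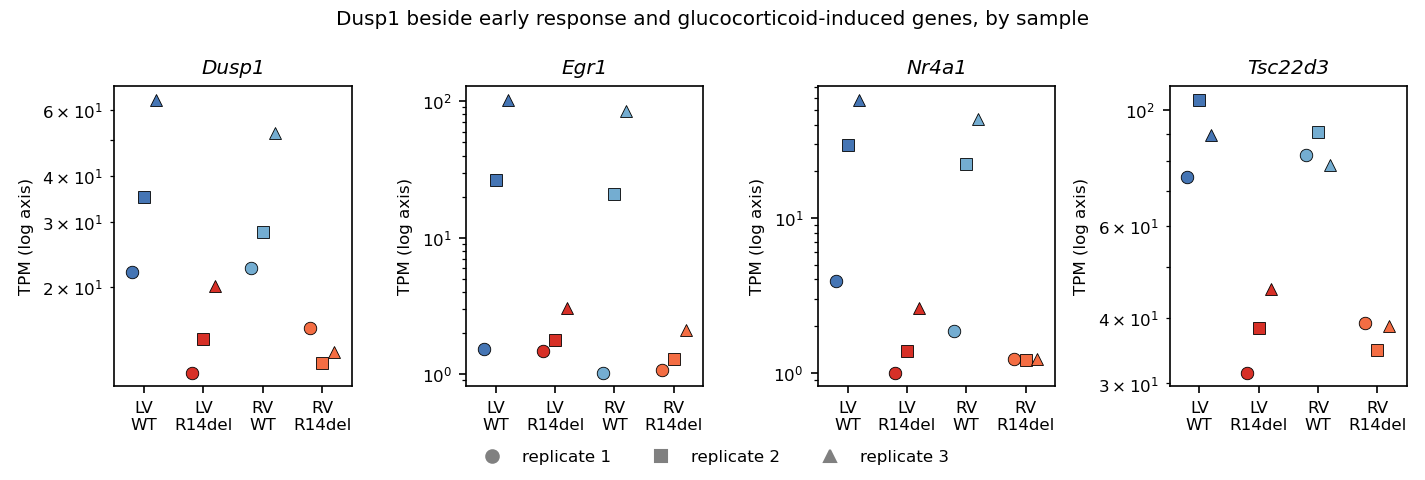
TPM on a log axis for Dusp1, the early response genes Egr1 and Nr4a1 and the glucocorticoid-induced gene Tsc22d3 in each sample, with symbols for the replicate number. WT-PLN replicate 1 (circles) lies with the R14del-PLN samples for Egr1, at 1.54 TPM in LV and 1.03 in RV. It lies above them for Dusp1, Nr4a1 and Tsc22d3.

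The genes whose pattern over the 12 samples was most like that of each member were found by the Pearson correlation of log2(TPM + 1), as a description over samples that share ventricle and genotype. For Dusp1 they were Enc1 (r = 0.985, Spearman rho = 0.986), Stk17b (r = 0.980, rho = 0.958) and Errfi1 (r = 0.972, rho = 0.930). Errfi1, an inducible inhibitor of the EGF receptor, was at 5.57, 24.2 and 71.3 TPM in LV WT-PLN and at 2.35, 2.79 and 4.76 TPM in LV R14del-PLN samples, so that its LV groups, like those of Dusp1, did not overlap. For Dusp6 the nearest were Nt5e (r = 0.954), 2310035C23Rik (r = 0.948) and Myadm (r = 0.946), and for Dusp3 they were Ipo5, Rapgef1 and Ppm1a (r = 0.972, 0.972 and 0.970). Dusp16 was most like Ncoa3, Impact and Ppfia1 (r = 0.965, 0.956 and 0.950), and Dusp8 was most like Slc35f5, Adprhl1 and 6430548M08Rik (r = 0.949, 0.929 and 0.927). The low members gave lower values, with Jdp2, Pcolce2 and Arrdc3 for Dusp4 (r = 0.939, 0.928 and 0.923), Enpp6, Lvrn and Ifi205 for Dusp5 (r = 0.934, 0.927 and 0.917), and Gm18666, Crhr2 and Zfp930 for Dusp10 (r = 0.923, 0.922 and 0.922). No gene was named for more than 1 member.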

How the data were processed

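RNA was extracted from flash frozen ventricles and sequenced as polyA stranded libraries. Reads were mapped to GRCm38 with CLC Genomics Workbench (v 20.0.2) per the study's methods; the program and annotation behind the deposited TPM values are not given in the sources used here, nor is the use of strand. The authors deposited TPM per gene, summing to 1000000 in each sample, so that sequencing depth is unknown and no counting error could be given.

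Members were matched by symbol. The members and gene lists were chosen with earlier results of these data known. The genes named were the 8 members, list genes that were called, and for each member the 3 tested genes of highest correlation. Egr1, Nr4a1, Ergic1, Dusp7, Dusp2 and Dusp9 do not follow from this rule, and they were picked with their values known. Values of log2(TPM + 1) of the 12526 genes that averaged 0.5 TPM or more were tested in R 4.3.3 by limma 3.58.1, with all 12 samples in 1 model of 4 group means. The empirical Bayes step followed an intensity trend, and the degrees of freedom were 8 (residual) and 5.15 (prior). Dusp4, under this filter, was taken from a fit of 22948 genes. P-values were adjusted by the Benjamini-Hochberg method over all genes of the fit. The script was tested on simulated data. The alternatives varied the pseudocount, filter, scaling, trend, samples and block. Within WT-PLN, LV and RV samples with one number deviated together from their group means (correlation 0.321 to 0.657), so the numbers may mark pairs there. The RV against LV and interaction values given are from the main fit, which had no block and so ignored such pairs. A genotype difference seen in both ventricles may thus not have been observed in separate mice. The blocked fit called 0 members. Python 3.11.15, numpy 2.4.6, pandas 2.3.3, scipy 1.17.1, matplotlib 3.10.9, statmod 1.5.0 and BLAST 2.17.0 were also used, with the GENCODE annotation of GRCm38 and RefSeq promoters.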

Additional observations from a re-analysis of the deposited data

How the results depend on the processing

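Calls of the members held at 0 under the alternatives run, except for Dusp1 between genotypes in LV. There 1 member was called with the replicate number as a fixed block (-1.23, limma adjusted p = 0.0393), without both WT-PLN samples numbered 1 (-1.59, limma adjusted p = 0.022), and in 0 to 1 members when each sample was left out, the 1 being without LV WT-PLN replicate 1. The log2 fold change of Dusp1 stayed negative under all 26 alternatives, from -1.59 to -0.84 in LV and from -1.42 to -0.83 in RV, where 0 of 26 called it. Between genotypes, same-numbered samples had correlations of -0.0209 to 0.156 in LV and 0.061 to 0.219 in RV. Other pairs had -0.164 to 0.0687 and -0.162 to 0.0788. The labels do not state what the numbers share between genotypes. The fixed block raised the genes called from 65 to 119 in LV and from 34 to 62 in RV. In R14del-PLN hearts the correlation of LV and RV was 0.0542 to 0.389, and the block changed no other call of a member.

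Over all genes, the counts called in LV and RV were 104 and 85 with quantile normalization, 99 and 88 with upper quartile scaling, 95 and 73 without mitochondrial genes, 22 and 17 with no filter, 231 and 88 without both WT-PLN samples numbered 1, 42 and 15 without the 3 samples highest in atrial markers (an alternative chosen after seeing the data), and 19 to 153 and 14 to 48 leaving out single samples.

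Among the 4 pairwise comparisons of each member and the interaction of Dusp1, signs turned for 11 values, none of them called. The interactions of the other members past the filter also took both signs, between -0.422 (Dusp10) and 0.35 (Dusp8), with 0 called. Quantile normalization gave 0.00524 for Dusp1 between ventricles in WT-PLN, -0.044 for its interaction, and 0.0108 and 0.0395 for Dusp3 between genotypes in LV and RV, and upper quartile scaling gave 0.00524, -0.0397, 0.00334 and 0.0238. Rescaling without mitochondrial genes gave 0.0263 for Dusp1 and 0.0332 for Dusp4 between ventricles in R14del-PLN and 0.0429 for Dusp3 between genotypes in RV, where a pseudocount of 0.1 gave 2.15e-05. Without the 3 samples highest in atrial markers, Dusp1 between ventricles in WT-PLN was 0.302, its interaction -0.37, Dusp3 between genotypes in LV 0.000618, and Dusp10 between ventricles in R14del-PLN -6.29e-06. Leaving out single samples gave, between ventricles, -0.545 to 0.208 (WT-PLN) and -0.298 to 0.0662 (R14del-PLN) for Dusp1, -0.00495 to 0.243 and -0.0947 to 0.0877 for Dusp5, -0.0399 to 0.297 and -6.29e-06 to 0.199 for Dusp10, and -0.0677 to 0.0427 for Dusp4 in R14del-PLN. Between genotypes it gave -0.277 to 0.000618 (LV) and -0.169 to 0.153 (RV) for Dusp3 and -0.538 to 0.0402 for Dusp8 in RV, and for the interaction of Dusp1 -0.338 to 0.415. The causes were not tested.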
